A study of Homo sapiens with 54 samples.

Results

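Collagen genes were taken as every gene whose only symbol in the probe-to-gene table reads COL, a number, A and a number, with the probe set of the highest mean standing for a gene. This gave 43 genes from 45 probe sets, of 18417 genes in all. COL11A2 was the gene with several probe sets, 3 in number. By the form of the protein there were 11 fibrillar chains, 6 basement membrane (type IV) chains, 5 type VI chains, 1 anchoring fibril chain, 3 short-chain network chains, 10 fibril-associated chains, 3 transmembrane chains, 2 multiplexins and 2 others.

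RNA was hybridised to 54 Affymetrix Gene 1.0 ST arrays from 9 established human cell lines, with 2 arrays per line and time. Cells were untreated (0 h) or had been given calcitriol, the active vitamin D hormone, for 8 or 36 h. The 2 fibroblast lines were AG09309 and AG09319 (Ag09309 and Ag09319 in the cell line field), known from the ENCODE project as skin and gum fibroblasts, and the 4 lymphoblastoid lines, GM07019, GM07348, GM10854 and GM12878, are B cells immortalised by Epstein-Barr virus. The other lines were HepG2 (HEP-G2 in the labels), a liver cancer line, HL60, a promyelocytic leukaemia line, and K562, a leukaemia line with erythroid features. The labels give no mutation, transgene or calcitriol dose for any group, and no cells were left untreated for 8 or 36 h among the samples analysed here, so calcitriol and time in culture cannot be told apart. Sample titles mark the replicates as BR1 and BR2 and do not spell out the letters. In a test on arrays a p-value therefore measures the spread between these arrays, which may be technical. In a test with the line as the replicate it measures the spread between lines. Sample titles of GM10854 name another line, and the cell line field was followed. GM12878, AG09319 and HepG2 share a second style of title, so for these 3 lines the line cannot be told apart from the style.

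Collagens are proteins of the extracellular matrix in which chains wind around each other into a rope-like helix. Fibrillar collagens form the cables of skin, tendon and bone, type IV collagen forms the sheet of basement membranes, type VI forms beaded filaments around cells, and fibril-associated collagens decorate the cables. Fibroblasts are the main makers of fibrillar collagen in connective tissue, where the chains are hydroxylated, folded with chaperones, secreted, trimmed and crosslinked by dedicated enzymes.

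RefSeq promoter sequences (assembly GRCh38.p14) matched 31 of the 43 genes. The stretches below belong to genes whose level set a cell type apart: the 126 bases between the starts of COL4A1 and COL4A2, neighbours transcribed away from each other, and 100 bases before the start of COL6A2, COL6A3 and COL12A1, all higher in fibroblasts, and of COL19A1, higher in lymphoblastoid lines. They lie at chr13:110307158-110307283 (plus strand shown), chr21:46098012-46098111 (plus), chr2:237414165-237414264 (minus), chr6:75206054-75206153 (minus) and chr6:69866456-69866555 (plus). Capitals mark the TATA box letters TATAAA, the CCAAT box and the GC box letters GGGCGG, on either strand.
COL4A1 and COL4A2: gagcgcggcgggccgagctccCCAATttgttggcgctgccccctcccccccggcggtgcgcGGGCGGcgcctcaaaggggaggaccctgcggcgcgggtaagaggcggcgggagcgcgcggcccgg
COL6A2: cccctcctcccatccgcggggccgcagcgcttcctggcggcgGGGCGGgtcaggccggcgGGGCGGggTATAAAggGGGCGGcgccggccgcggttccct
COL6A3: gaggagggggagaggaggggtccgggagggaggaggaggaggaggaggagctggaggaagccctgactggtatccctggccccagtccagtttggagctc
COL12A1: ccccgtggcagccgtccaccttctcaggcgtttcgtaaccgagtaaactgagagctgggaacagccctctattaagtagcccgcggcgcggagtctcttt
COL19A1: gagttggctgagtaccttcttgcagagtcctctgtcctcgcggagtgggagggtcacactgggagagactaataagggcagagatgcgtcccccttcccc
The COL4A1 and COL4A2 stretch held 1 CCAAT and 1 GGGCGG, the COL6A2 stretch held 1 TATAAA and 3 GGGCGG, and the other 3 stretches held none of the motifs. In the 250 bases before a start, TATAAA was found for 6 of the 31 collagen genes, CCAAT for 10 and GGGCGG for 21. Of all 35116 promoters 10.7%, 32.0% and 42.6% held these motifs. A gene counted once if any of its promoters held the motif, whereas the shares count each promoter, so they are not like for like. A pair of vitamin D receptor half-sites in the same direction and 3 bases apart, where a half-site read AGGTCA or GGGTCA or, with T as the third base, AGTTCA or GGTTCA, was found in 0 of the 31, against 0.0655% of all promoters. A match, or the lack of one, describes these letters in this window alone.

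The labelled lines carried the markers of their cell types. All 8 fibroblast markers, among them the proteoglycan genes DCN and LUM, were higher in the fibroblast lines, where the mean of the list ran from 7.94 to 9.002 on the log2 scale over the 12 arrays. The mean of 7 B cell markers ran from 7.89 to 8.60 in the lymphoblastoid arrays. It also stood at 6.27 and 6.29 in the 2 untreated arrays of AG09309, against 4.52 to 4.87 in the treated arrays of that line. MS4A1, the B cell surface protein CD20, read 8.15 and 8.07 in those untreated arrays, and 3.38 and 3.29 at 8 h and 3.10 and 2.85 at 36 h. Every result below that uses the untreated AG09309 arrays carries these values with it, and their part in the results was not tested. Of the 54 arrays 3 are called arrays that stand apart. They lie in the 3 groups whose 2 arrays differed most from each other. Each is the array of its group that correlates less with the other arrays of its line. They are replicate 1 of K562 at 36 h (mean correlation 0.971), replicate 2 of HepG2 at 0 h (0.963) and replicate 2 of AG09319 at 8 h (0.891). The correlation alone did not set them: replicate 2 of AG09319 at 36 h, at 0.955, was not among them. Array medians ran from 4.98 to 5.31, and for levels well below them it cannot be told whether a gene was above background, so differences from such levels are not exact folds. In bulk RNA, fewer cells of a type and less RNA per cell cannot be told apart.

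Untreated fibroblasts stood apart from the 7 other lines by a group of 12 collagens. These were the fibrillar chains COL1A1, COL1A2, COL3A1, COL5A1 and COL5A2, the type VI chains COL6A1, COL6A2 and COL6A3, the basement membrane chains COL4A1 and COL4A2, the short-chain COL8A1 and the fibril-associated COL12A1. Their differences ran from 1.58 to 6.43 on the log2 scale. No collagen was lower (0 of 43), and the share of all probe sets called lower is not given here. The same test called 0 of 7 B cell markers lower, at a median of -1.24, so a count of 0 is not particular to collagens. The 12 are 27.9% of the collagens, whereas 6.69% of all probe sets tested were higher in fibroblasts. The test was limma's on the means of lines at 0 h, with the line as the replicate (2 against 7) and Benjamini-Hochberg adjustment over 19460 probe sets at 0.05. The median difference over the 43 was 0.03, and that over all probe sets was -0.165. Of the other 31 collagens, 11 lay above 0 and 20 below.

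**Figure D1:**
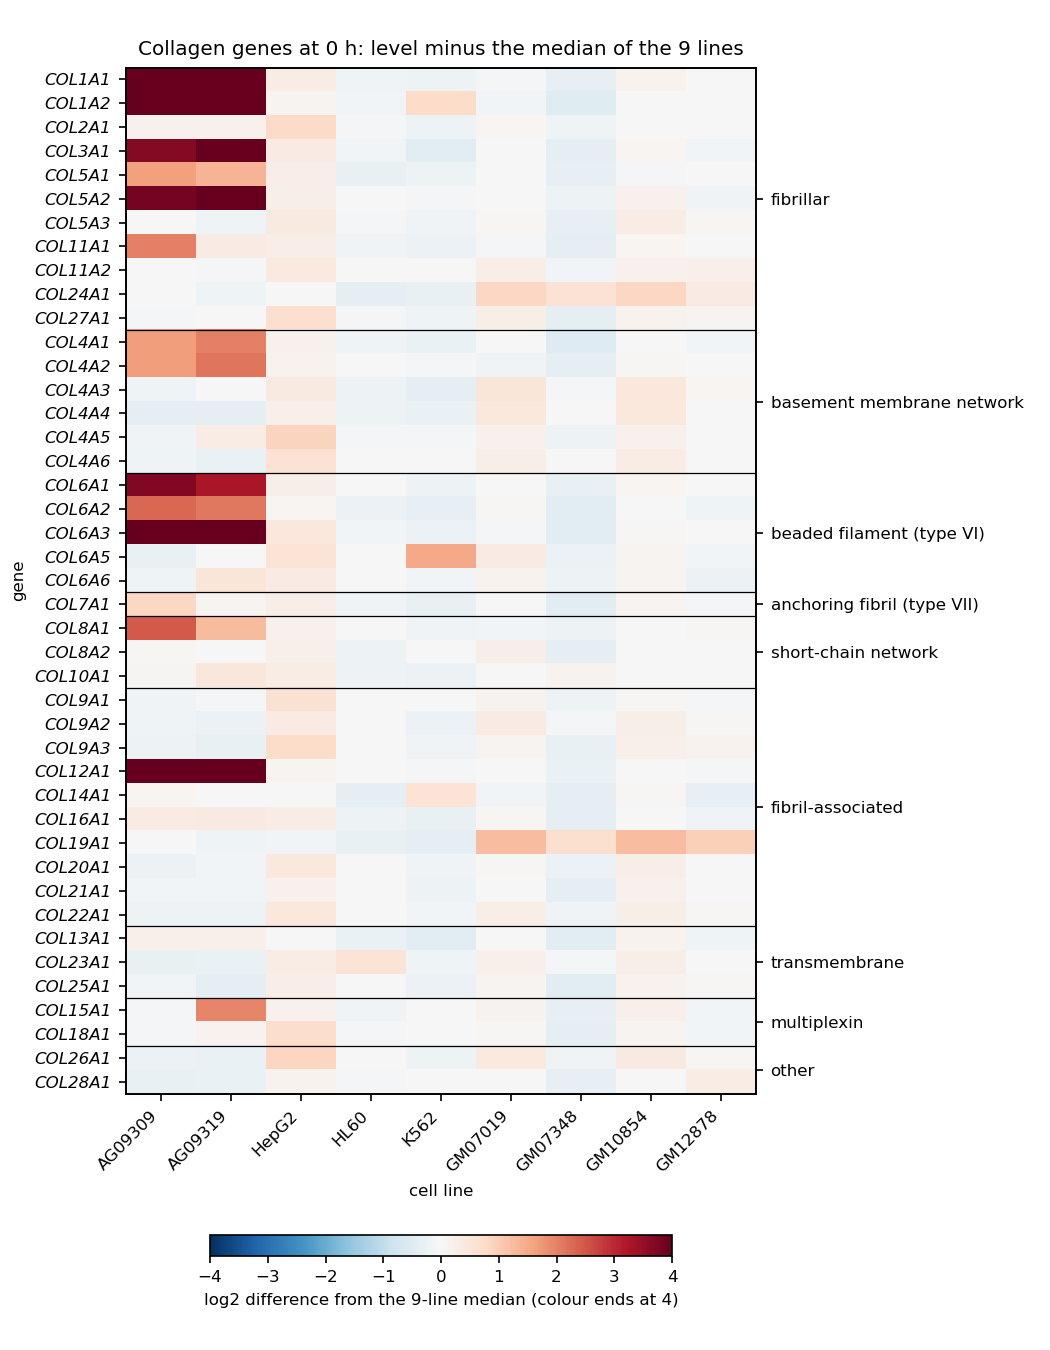
Level of each of the 43 collagen genes (down the page, by form of protein) in each untreated cell line (across), as the log2 difference from the median of the 9 lines for that gene. Red marks levels above that median, and the strongest red fills the 2 fibroblast columns for COL1A1, COL1A2, COL6A3 and COL12A1, which exceed the end of the colour scale at 4.

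Type I collagen, the main fibre of skin and bone, gave large differences through both its chains. COL1A1 read 11.71 and 11.55 in AG09309 and 11.65 and 11.59 in AG09319 on the log2 scale, whereas the means of the 7 other lines had a lowest of 5.95, a median of 6.23 and a highest of 6.56. COL1A2 read 11.97 and 11.89 in AG09309 and 12.20 and 12.23 in AG09319, against a lowest of 5.15, a median of 5.61 and a highest of 6.35 (K562). The 4 fibroblast values of each chain lay close together and far above every other line. The differences were 5.40 ± 0.17 for COL1A1 (standard error; limma adjusted p = 2.26e-07) and 6.43 ± 0.26 for COL1A2 (4.67e-07). COL3A1, the chain of the type III collagen that runs with type I in skin and vessels, read 9.28 and 8.97 in AG09309 and 9.49 and 9.50 in AG09319, against line means from 5.04 to 5.80, a difference of 3.93 ± 0.21 (2.34e-06).

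Type V collagen, which starts and sizes type I fibrils, showed its chains unequally. COL5A2 was higher by 4.12 ± 0.18 (limma adjusted p = 6.71e-07), with 8.10 and 8.11 in AG09309 and 8.65 and 8.65 in AG09319, against line means from 4.06 to 4.49. COL5A1 was higher by 1.58 ± 0.18 (0.000543), with 7.02 and 7.18 in AG09309 and 6.91 and 6.70 in AG09319, against 5.13 to 5.73. COL5A3 did not pass, with line means of 6.19 in AG09309 and 6.02 in AG09319 that lie inside the 5.87 to 6.54 of the others. Thus 5 of the 11 fibrillar chains were higher. The cartilage chain COL2A1 (5.96 and 5.97 in the fibroblast lines, against 5.58 to 6.57) and COL11A2, COL24A1 and COL27A1 were not among them. COL11A1, a cartilage fibril chain, had a difference of 1.24 ± 0.36 that did not pass (adjusted p = 0.071), and it was high in AG09309 alone.

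Of the type VI chains, which form a filament network at the cell surface, the 3 classical ones were higher in fibroblasts. COL6A3 read 10.76 and 10.64 in AG09309 and 10.47 and 10.20 in AG09319, against line means from 4.15 to 5.01, a difference of 5.98 ± 0.21 (limma adjusted p = 2.97e-07). COL6A1 read 10.06 and 9.94 in AG09309 and 9.50 and 9.65 in AG09319, against 5.998 to 6.55 (3.52 ± 0.18, 1.53e-06). COL6A2 read 9.52 and 9.46 in AG09309 and 9.48 and 9.12 in AG09319, against 6.75 to 7.25 (2.36 ± 0.17, 2.19e-05). In none of these 3 did a fibroblast array come near the other lines. The later-found chains COL6A5 and COL6A6 had fibroblast levels of 2.46 to 4.24, well below the array medians, and did not pass.

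Of the fibril-associated collagens 1 of 10 was higher, COL12A1, which binds the surface of type I fibrils. It read 8.93 and 8.92 in AG09309 and 10.12 and 10.03 in AG09319, against line means of 3.37 to 3.74, a difference of 5.91 ± 0.25 (limma adjusted p = 5.82e-07). Its level in the other lines was far below the array medians, so this is no exact fold. Of the 6 basement membrane chains 2 were higher, the widely used pair COL4A1 (1.97 ± 0.19, 0.000156) and COL4A2 (1.96 ± 0.17, 9.73e-05). COL4A1 averaged 6.47 in AG09309 and 6.79 in AG09319, against 4.27 to 4.95, and COL4A2 averaged 7.29 in AG09309 and 7.76 in AG09319, against 5.25 to 5.78. The restricted chains COL4A3 to COL4A6, known from kidney and other specialised membranes, had fibroblast means of 4.30 to 4.74 and did not pass. COL8A1, a network collagen of vessel walls and the cornea's inner membrane, was higher by 1.91 ± 0.26 (0.00152), whereas COL8A2 and COL10A1 did not pass. The anchoring fibril chain COL7A1, which ties the skin's basement membrane to the dermis, had a difference of 0.55 ± 0.23 (0.180), and none of the 3 transmembrane collagens or 2 multiplexins passed.

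**Figure D2:**
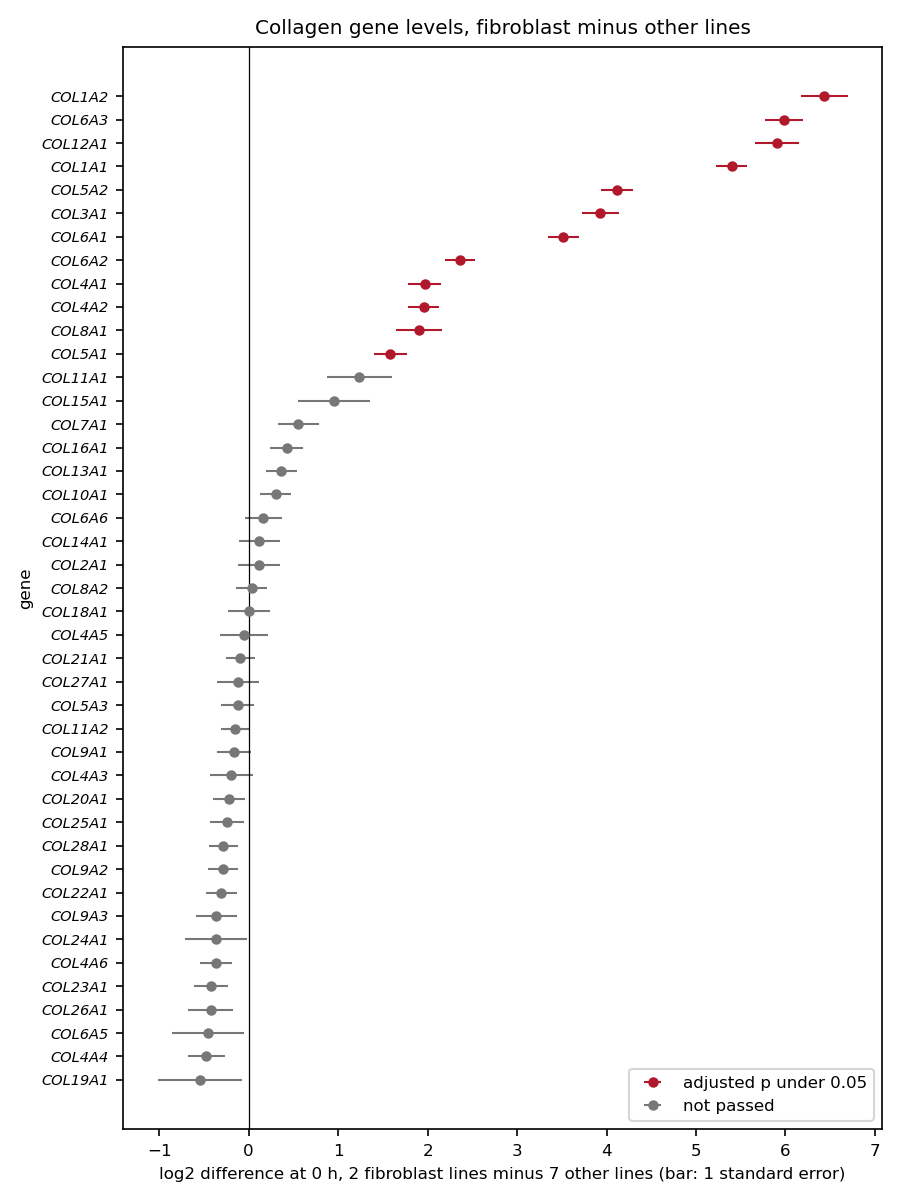
Level in untreated cells of each of the 43 collagen genes (down the page) as a log2 difference, 2 fibroblast lines minus 7 other lines, with bars of 1 standard error. The 12 genes with an adjusted p under 0.05, in red, lie between 1.58 and 6.43, and the other 31, in grey, lie between -0.55 and 1.24.

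The separation held at every time. Over 0, 8 and 36 h, all 12 fibroblast arrays lay above all 42 other arrays for 12 of the 43 collagens, the genes named above, and below them for 0 collagens, against 3.58% and 0.524% of all probe sets. For COL1A1 the fibroblast arrays ran from 11.44 to 12.33, against 5.80 to 6.79 in the others. For COL12A1 they ran from 8.17 to 10.13, against 3.17 to 4.06. For COL8A1, with the narrowest gap of the 12, they ran from 4.51 to 6.79, against a lowest of 2.95 and a median of 3.36 in the others, none of which reached 4.51. Each of the 12 kept its call at 0 h under every alternative tried for it.

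The 43 genes lie on 17 chromosomes, and 14 of them form 7 pairs with no other listed gene between them. In 3 pairs both genes were higher in fibroblasts (COL3A1 with COL5A2 on chromosome 2, COL4A1 with COL4A2 on 13, and COL6A1 with COL6A2 on 21). In the other 4 neither was called (COL4A3 with COL4A4, COL4A5 with COL4A6, COL6A5 with COL6A6, and COL9A1 with COL19A1).

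Some of the enzymes and chaperones that make collagen were also higher in fibroblasts. Of 33 measured genes of folding and processing 17 were higher, 0 lower and 16 not called, where 6.69% of all probe sets were higher. The median difference of the list was 1.19, against -0.165 over all probe sets. LOX, which crosslinks collagen, was higher by 7.17 ± 0.63, PLOD2, which hydroxylates its lysines, by 4.63 ± 1.21, PCOLCE, which speeds the trimming of procollagen, by 4.03 ± 0.47, and SERPINH1, the collagen chaperone, by 2.38 ± 0.56. Of 14 measured genes of collagen breakdown and its control 10 were higher, with a median of 3.67. They included the collagenase MMP1 (5.94 ± 0.21), the gelatinase MMP2 (5.29 ± 0.30), the lysosomal protease CTSK (4.63 ± 0.18) and the protease inhibitor TIMP1 (3.40 ± 0.42). Of 9 measured collagen receptors 3 were higher, the integrin chains ITGA2 (4.11 ± 0.82) and ITGB1 (3.26 ± 0.42) and the kinase receptor DDR2 (3.99 ± 0.42), and the median was -0.185.

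The 2 fibroblast lines also differed from one another in some collagens. At 0 h AG09309 and AG09319 differed in 6 of the 43 (14.0%, against 7.7% of all probe sets), in 1 limma model of the 54 arrays. COL11A1 read 6.40 and 6.33 in AG09309, against 4.56 and 4.74 in AG09319, a difference of 1.71 ± 0.21 (limma adjusted p = 1.7e-07). COL15A1, a multiplexin of the zone beneath basement membranes, read 4.83 and 4.80 in AG09309, against 6.92 and 6.74 in AG09319 (-2.02 ± 0.19, 2e-10). The line with the higher level thus depended on the gene. AG09319 lay just above the 3.95 to 4.61 of the non-fibroblast lines for COL11A1, and AG09309 lay inside their 4.54 to 5.07 for COL15A1. COL8A1 (1.19 ± 0.21) and COL7A1 (0.72 ± 0.19) were also higher in AG09309, and COL12A1 (-1.15 ± 0.27) and COL6A6 (-0.65 ± 0.16) were lower.

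These comparisons at 0 h include the AG09309 arrays with B cell markers, and 5 of the 7 such markers were higher in AG09309 (MS4A1 by 4.84 ± 0.21). The comparison was therefore repeated among treated arrays, an addition made after seeing the data. At 8 h 12 collagens differed (27.9%, against 9.28% of all probe sets) and at 36 h 10 did (23.3%, against 8.24%). COL7A1, COL8A1, COL11A1 and COL15A1 differed at all 3 times, 4 genes, each in the same direction. For COL15A1 the differences were -2.02, -1.95 and -1.99 at 0, 8 and 36 h, and for COL11A1 they were 1.71, 1.74 and 2.11. For COL8A1 they were 1.19, 1.59 and 1.45, and for COL7A1 0.72, 0.63 and 0.66. In each of these 4 genes the 6 arrays of one line lay wholly apart from the 6 of the other. The 4 were picked by their calls in these same arrays, so this only describes them. The share of all probe sets that separate the lines in this way was not counted. At 0 h COL7A1 lost its call in 3 of 10 alternatives, and COL8A1, COL11A1 and COL15A1 lost theirs in 0. COL6A1 and COL6A3 were higher in AG09309 at both 8 and 36 h, by 0.79 and 0.98 for COL6A1 and by 1.55 and 1.21 for COL6A3, and did not pass at 0 h (0.43 and 0.36). COL12A1, lower in AG09309 at 0 h, had a difference of -0.03 at 8 h (adjusted p = 0.947). Without the 3 arrays that stand apart AG09319 keeps 1 array at 8 h, and only sizes are given for that fit. The difference at 8 h was then 2.02 for COL11A1, -2.19 for COL15A1, 1.46 for COL8A1 and 0.89 for COL7A1. COL12A1 was then lower in AG09309 (-0.95) and COL6A3 had a difference of 0.85. COL6A5 and COL28A1, called at 8 h with all arrays (-0.85 and -0.72), had differences of -0.11 and -0.24.

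Some other genes of the collagen pathway differed between the fibroblast lines at 0 h, a comparison in which 7.7% of all probe sets did, and no test set the lists against that share. LOX (1.49 ± 0.20), PCOLCE2 (1.25 ± 0.24) and the prolyl hydroxylase P4HA2 (0.60 ± 0.18) were higher in AG09309, and ADAMTS3 (-1.29 ± 0.22), LOXL3 (-0.86 ± 0.15) and PCOLCE (-0.77 ± 0.18) were lower, 3 and 3 of 33. In breakdown, MMP16 (1.48 ± 0.20) and MMP14 (0.77 ± 0.20) were higher and MMP1 (-0.77 ± 0.24) and TIMP2 (-0.76 ± 0.22) lower, of 14. Among receptors, the fibrillar collagen integrin ITGA11 was higher by 2.33 ± 0.18 and DDR2 lower (-0.95 ± 0.19). Of the 8 fibroblast markers 1 was higher, LUM (2.43 ± 0.28). Another 3 were lower, FBLN1, PDGFRA and DCN (-2.07 ± 0.19, -1.22 ± 0.25 and -0.79 ± 0.19). The median of that list was -0.65, against -0.02 over all probe sets. The desmosome gene DSP was higher in AG09309 by 3.30 ± 0.26, the 1 called of 5 measured keratinocyte and epithelial markers, whose median was 0.08. The part of these markers in the collagen differences was not tested.

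Levels were also compared between the other cell types, in comparisons chosen after seeing the data. The 4 lymphoblastoid lines had higher COL19A1, a minor fibril-associated collagen, and COL24A1, a minor fibrillar chain, than the 5 other lines. COL19A1 averaged 5.92 in GM07019 and 5.91 in GM10854, 5.63 in GM12878 and 5.33 in GM07348, against 4.29 to 4.68 in the others (1.21 ± 0.16, limma adjusted p = 0.00396). Over all times the 24 lymphoblastoid arrays ran from 5.13 to 6.21, all above the 30 others, which ran from 4.03 to 4.97. COL24A1 averaged 5.39 in GM07019, 5.38 in GM10854, 4.87 in GM12878 and 5.11 in GM07348, against 4.18 to 4.55 (0.81 ± 0.16, 0.0226), and over all times its arrays overlapped, with 4.59 to 5.56 against 4.02 to 5.13. COL24A1 was not called without AG09319, GM07019, GM07348 or GM10854. These 2 genes are 4.65% of the collagens, near the 3.0% of all probe sets that differed. COL19A1 was also the 1 collagen (of 43) whose lymphoblastoid arrays all lay above the rest, against 1.66% of all probe sets.

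K562 differed from the 6 other non-fibroblast lines in 8 collagens (18.6%, against 36.1% of all probe sets), 3 of them higher. Here the test was on arrays, so its p-values measure the spread between arrays and leave out the spread between lines. The tests of HL60 and HepG2 below were made in the same way. COL6A5 read 4.68 and 3.90 in K562, against line means of 2.53 to 3.30 (1.42 ± 0.20, limma adjusted p = 4.33e-07). These levels lie below the array medians. COL1A2 read 6.30 and 6.39 in K562, against line means of 5.15 to 5.72 (0.83 ± 0.14, 1.01e-05), and it stayed between 6.30 and 6.84 over the 6 K562 arrays, above the 4.85 to 5.91 of the 36 other non-fibroblast arrays. Its partner chain COL1A1 read 6.07 on average in K562, inside the 5.95 to 6.56 of those lines. COL14A1, which binds fibrils in tendon and skin, was higher by 0.72 ± 0.14 (4.6e-05), and COL19A1, COL24A1, COL4A3, COL4A4 and COL3A1 were lower, with differences from -1.003 to -0.40. COL3A1 lost its call in 3 of 5 alternatives, and K562 averaged 5.04 at 0 h, 5.48 at 8 h and 5.40 at 36 h. COL4A3 averaged 4.36 in K562 and 4.54 in HL60, against 4.65 to 5.22 in the lymphoblastoid lines and 5.11 in HepG2. COL4A4 averaged 4.58 in K562 and 4.65 in HL60, against 4.86 to 5.29 and 5.07.

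HL60 differed in 3 collagens (6.98%, against 27.3% of all probe sets). The transmembrane collagen COL23A1 was higher (0.47 ± 0.17, limma adjusted p = 0.0294), and COL24A1 (-0.75 ± 0.15) and COL19A1 (-0.88 ± 0.16) were lower. Of the 6 lines set against HL60 or K562, 4 are the lymphoblastoid ones, in which both genes are high. COL19A1 averaged 4.39 in HL60 and 4.29 in K562, beside 4.57 in HepG2, 4.52 in AG09319 and 4.68 in AG09309, and COL24A1 averaged 4.18 in HL60 and 4.24 in K562, beside 4.55, 4.37 and 4.53 in those lines. HepG2 differed in 21 (48.8%, against 50.5%), a share near that of all probe sets. The largest of these differences were COL4A5, a basement membrane chain (0.90 ± 0.14, 1.09e-06), and COL2A1 (0.84 ± 0.16, 3.65e-05), both higher. COL4A5 read 5.19 and 5.49 in HepG2, against line means of 4.22 to 4.61. COL2A1 read 6.40 and 6.74, against 5.58 to 5.88. Without the 3 arrays that stand apart HepG2 keeps 1 untreated array, and fewer collagens differed. Over the alternatives tried COL4A5 differed by 0.75 to 0.90 and COL2A1 by 0.67 to 0.97.

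**Figure D3:**
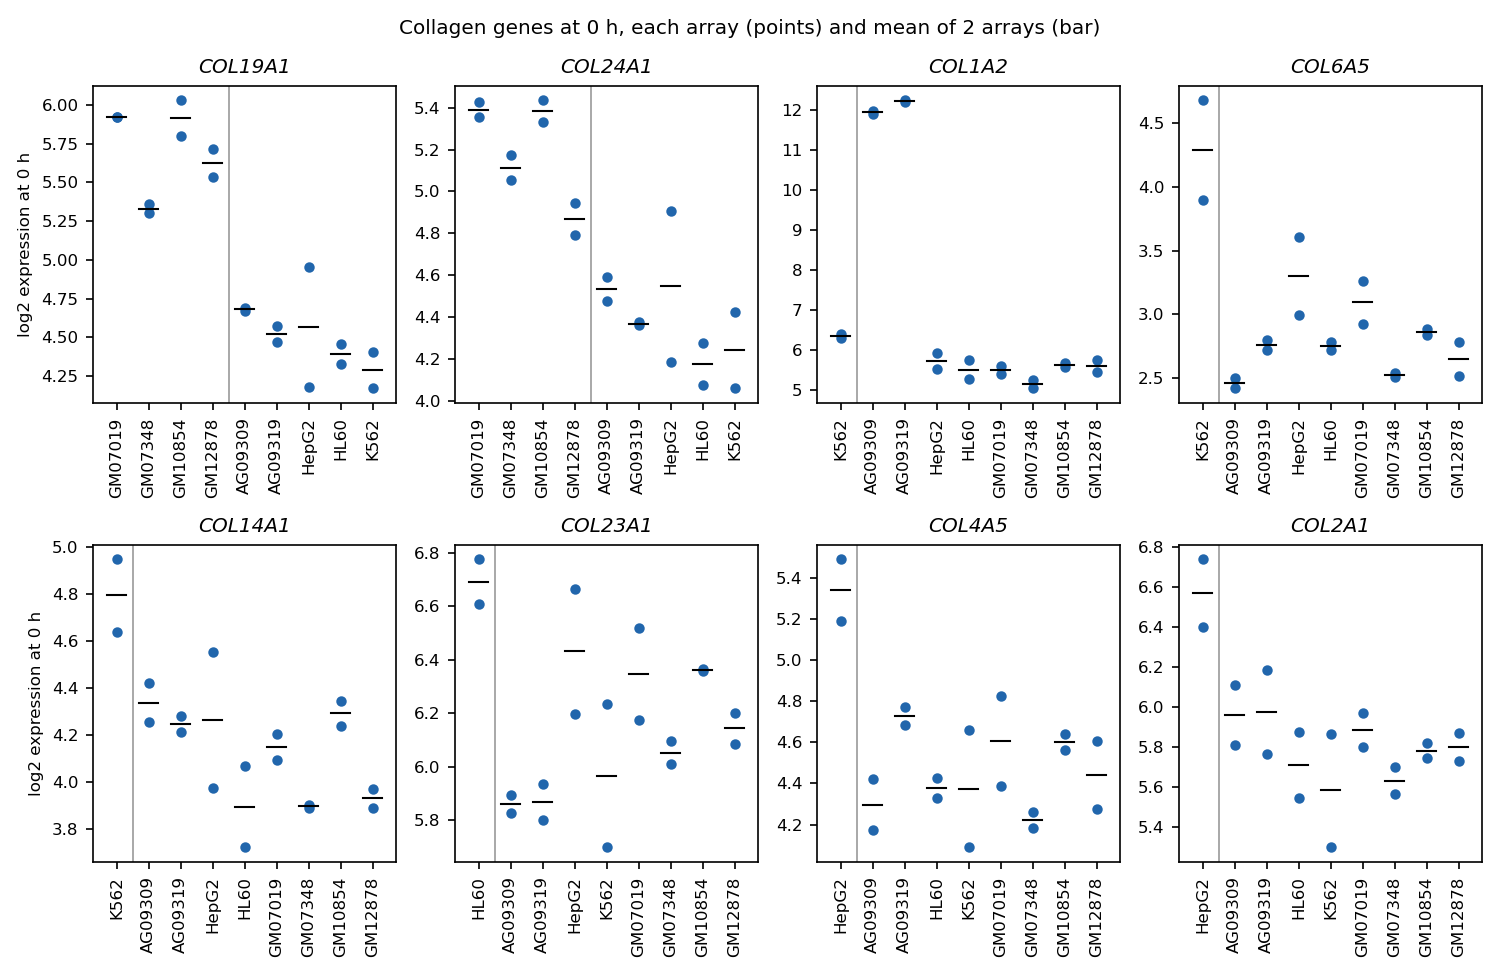
Log2 expression of 8 collagen genes in untreated cells of each line, with a point for each array and a bar for the mean of 2 arrays. The lines left of the grey rule are those set against the rest: the 4 lymphoblastoid lines lie at 5.30 or above for COL19A1, and K562 lies at 3.90 or above for COL6A5.

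With calcitriol, collagen levels in the 7 non-fibroblast lines showed no change that passed. Over 14 comparisons (8 and 36 h in each line), 0 of 602 tests passed with limma, 17 had an unadjusted p under 0.05 (2.82%), and changes ran from -0.56 to 0.49. Few probe sets of any gene changed in these lines: 0.236% in HL60, 0.00514% in GM07348 and 0.0% in the other 5 lines at 8 h, and 1.84% in HepG2, 0.868% in HL60, 0.118% in GM07348, 0.0668% in GM10854, 0.0514% in GM07019 and in GM12878 and 0.0411% in K562 at 36 h. The smallest p belonged to the transmembrane COL13A1 in GM07019 at 8 h, with 5.53 and 5.52 at 8 h, against 5.93 and 6.12 at 0 h (-0.50 ± 0.16, adjusted p = 0.903). Over all 9 lines, with the line as the replicate, 0 collagens passed at 8 h (0.0% of all probe sets) or at 36 h (0.468%), and 0 had an unadjusted p under 0.05.

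In AG09309, COL3A1 and COL14A1 rose at 36 h. COL3A1 read 9.95 and 10.10 at 36 h, against 9.28 and 8.97 at 0 h (0.90 ± 0.20, limma adjusted p = 0.00446). COL14A1 read 5.28 and 5.05 at 36 h, against 4.25 and 4.42 at 0 h (0.83 ± 0.18, 0.00287). In both genes the treated arrays lay above the untreated ones, and the share of all probe sets that do so was not counted. These 2 of 43 (4.65%) are near the 4.91% of all probe sets that changed. COL8A1, with 6.56 and 6.62 at 36 h and 6.09 and 5.75 at 0 h (0.67 ± 0.21, 0.0619), and COL16A1, a fibril-associated collagen, with 7.002 and 7.12 at 36 h and 6.37 and 6.60 at 0 h (0.58 ± 0.19, 0.0768), did not pass. Leaving out any 1 of the 4 arrays left 1 of the 2 calls. Beside these values, all 7 B cell markers fell at 36 h (MS4A1 fell by 5.13 ± 0.21) and the fibroblast marker PDGFRB rose by 0.91 ± 0.20. Against the 8 h arrays, which lack the B cell signal, 0 collagens passed at 36 h (0.38% of all probe sets), and 4 had an unadjusted p under 0.05.

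At 8 h in AG09309, 0 collagens passed (1.53% of all probe sets) and 9 had an unadjusted p under 0.05. The smallest adjusted values were those of COL1A1 (11.99 and 12.33 at 8 h, against 11.71 and 11.55 at 0 h, 0.54 ± 0.17, limma adjusted p = 0.134), COL5A1 (0.71 ± 0.23, 0.148) and COL3A1 (0.60 ± 0.20, 0.205). The 12 collagens that are high in fibroblasts all had a difference above 0, from 0.13 to 0.71 with a median of 0.40, and 27 of the other 31 did too, with a median of 0.18. Over all probe sets the median was 0.04. At that time 4 of the 7 B cell markers fell (MS4A1 fell by 4.77 ± 0.21), and no gene of folding, breakdown or receptors passed (0 of 33, 0 of 14 and 0 of 9). At 36 h, 3 of 33 folding genes rose (LOXL4 by 1.005 ± 0.20, ADAMTS3 by 0.80 ± 0.22 and SERPINH1 by 0.59 ± 0.17), as did 2 of 14 breakdown genes (the collagen uptake receptor MRC2 by 0.82 ± 0.17 and the peptidase PEPD by 0.74 ± 0.17).

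In AG09319, 0 collagens passed against 0 h at 8 h (0.324% of all probe sets, 16 at an unadjusted p under 0.05) or at 36 h (4.49%, 5 unadjusted). At 8 h 2 of the 12 fibroblast-high collagens had a difference above 0, and their lowest was COL12A1, with 10.01 and 8.17 at 8 h, against 10.12 and 10.03 at 0 h (-0.99 ± 0.27, limma adjusted p = 0.0874). Without replicate 1 the array that stands apart is the only 8 h sample, and that fit assumes a lone array to vary like the other groups. The other 31 went the other way, 29 of them above 0, with a median of 0.33. Both features are largest in the array that stands apart, replicate 2, in which the fibroblast-high genes had a median of -0.29 and the others of 0.72 from the untreated mean. In replicate 1 these medians were -0.10 and 0.03, and COL3A1 was low in both arrays (8.86 and 8.79 at 8 h, against 9.49 and 9.50 at 0 h; -0.67 ± 0.20, 0.0977). Replicate 2 also had the lowest mean of fibroblast markers (7.94), and the part of this in the results was not tested.

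At 36 h in AG09319, COL3A1 read 10.26 and 9.91, against 9.49 and 9.50 at 0 h (0.59 ± 0.20, limma adjusted p = 0.1). COL6A3 read 9.64 and 9.64 at 36 h, against 10.47 and 10.20 at 0 h (-0.70 ± 0.24, 0.094). In both genes the groups did not overlap, and neither passed. The share of all probe sets whose 2 groups do not overlap was not counted, so this only describes the values. Against 8 h, a comparison added after seeing the data, 5 collagens changed at 36 h (11.6%, against 18.0% of all probe sets). COL3A1 rose by 1.26 (adjusted p = 3.5e-05), COL12A1 by 1.01 (0.0108) and COL5A2 by 0.62 (0.0346), and COL13A1 fell by 0.63 (0.00687) and COL5A3 fell by 0.70 (0.0308). Without the 3 arrays that stand apart, 1 of them at 8 h in AG09319, COL3A1 rose by 1.23 (0.000521) and COL6A3 fell by 0.74 (0.0122), and no other collagen passed (2 in all). Without replicate 1 at 8 h the array that stands apart is left alone under the same assumption, so calls from that fit are not read as results on collagens. In the same comparison 9 of 33 folding genes rose, among them the prolyl hydroxylase P4HA1 (1.18 ± 0.34), PCOLCE (1.01 ± 0.18) and SERPINH1 (0.90 ± 0.17), and 1 fell (P4HA3, -0.52 ± 0.18). Of 14 breakdown genes CTSK (1.58 ± 0.27) and FAP (0.94 ± 0.31) rose, and 5 of 8 fibroblast markers and 1 of 7 smooth muscle and pericyte markers did. Of the markers of other cells, 2 of 7 erythroid, 2 of 6 endothelial and 1 of 6 promyelocyte markers fell, and their part in the results was not tested. All these counts of folding, breakdown and marker genes include the 8 h array that stands apart, and they were not repeated without it.

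**Figure D4:**
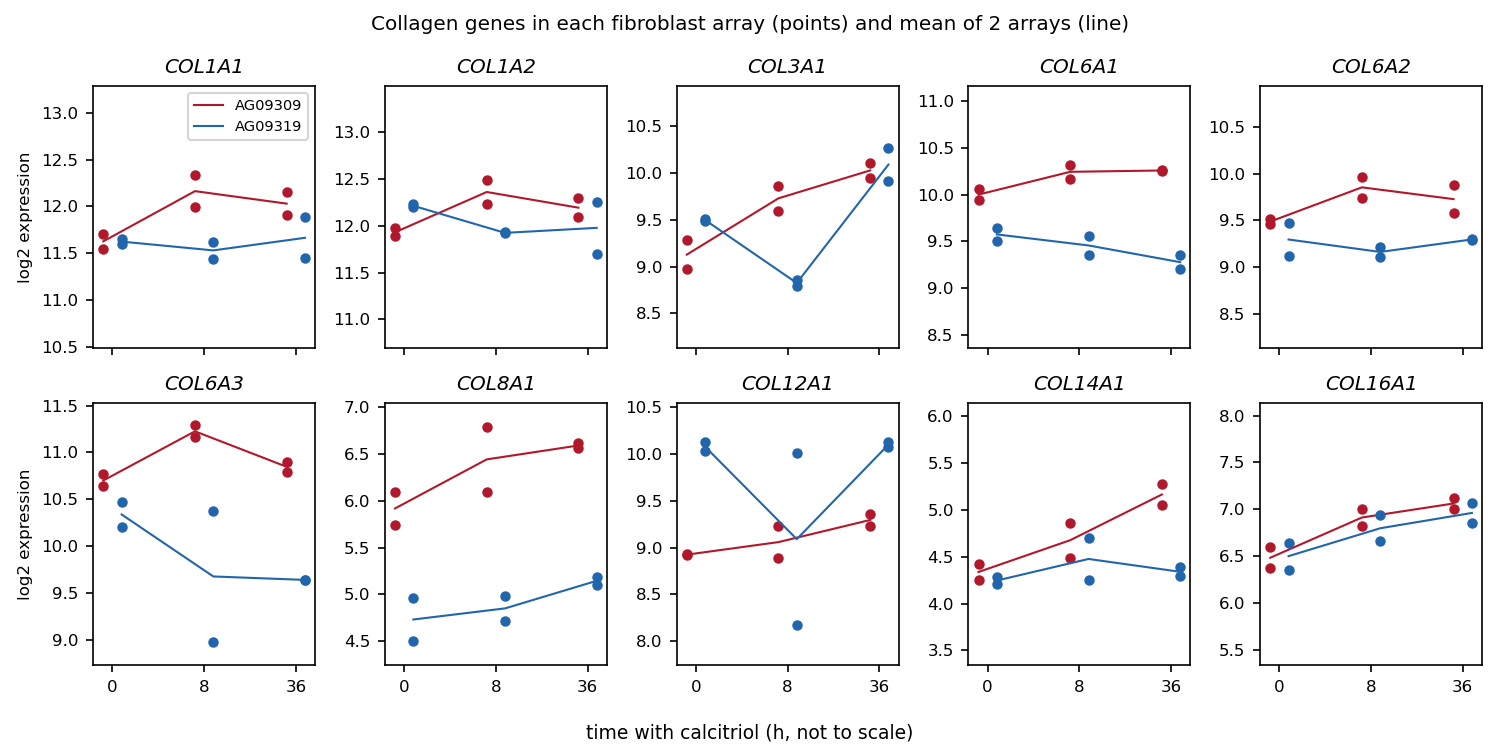
Log2 expression of 10 collagen genes in the fibroblast lines at 0, 8 and 36 h, with a point for each array and a line through the means of 2 arrays, on axes of equal height. COL3A1 stands at 9.91 or above in all 4 arrays of 36 h, and its 8 h arrays are above the 0 h arrays in AG09309 and below them in AG09319.

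Taking the fibroblast lines as a pair, a comparison added after seeing the data, 4 collagens rose at 36 h (9.30%, against 4.16% of all probe sets higher). This test too was on arrays, so its p-values measure the spread between arrays and leave out the spread between lines. COL3A1 rose by 0.75 ± 0.14 (limma adjusted p = 0.000384), COL16A1 by 0.52 ± 0.14 (0.0103), COL14A1 by 0.46 ± 0.13 (0.0156) and COL8A1 by 0.54 ± 0.15 (0.0178). For COL16A1 AG09319 read 7.07 and 6.85 at 36 h, against 6.35 and 6.64 at 0 h, so that the treated arrays lay above the untreated ones in both lines. COL8A1 did so in both lines too, with 5.10 and 5.19 against 4.96 and 4.51 in AG09319. The share of all probe sets that do so in both lines was not counted. COL14A1 had little part from AG09319, whose change was 0.09. COL3A1 kept its call in the 15 alternatives that held both lines, with changes of 0.66 to 0.88. The call was lost in 4 of 15 such alternatives for COL16A1, in 5 of 14 for COL14A1 and in 5 of 14 for COL8A1. With AG09309 left out 0 collagens passed, COL3A1 included, and with AG09319 left out 2 did. At 8 h 0 collagens passed in the pair (1.31% of all probe sets, 14 at an unadjusted p under 0.05).

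The response of COL3A1 differed between the fibroblast lines at 8 h. Its change was higher in AG09309 than in AG09319 by 1.27 ± 0.29 (limma adjusted p = 0.0095; changes of 0.60 and -0.67), a comparison added after seeing the data in which 1.47% of all probe sets passed. COL6A3 (1.19 ± 0.33, 0.064) and COL5A2 (1.01 ± 0.29, 0.0748) did not pass. At 36 h 0 collagens differed in their change between the lines (2.34% of all probe sets, 4 at an unadjusted p under 0.05), the nearest being COL14A1 (0.73 ± 0.25, 0.143). These differences include the untreated AG09309 arrays with B cell markers. The 8 h difference of COL3A1 was not called without AG09309 replicate 2 at 0 h or at 8 h. Without AG09319 replicate 1 at 8 h the fit rests on the lone array that stands apart.

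Set against the 7 other lines, with the line as the replicate, COL16A1 and COL8A1 changed more in the fibroblasts at 36 h (2 of 43, 4.65%, against 2.85% of all probe sets). COL16A1 changed by 0.58 in AG09309 and 0.46 in AG09319, against -0.27 to 0.22 in the others (0.62 ± 0.15, limma adjusted p = 0.0243). COL8A1 changed by 0.67 in AG09309 and 0.41 in AG09319, against -0.38 to 0.22 (0.55 ± 0.15, 0.0495). Neither was called without the 3 arrays that stand apart, or without AG09309, GM10854 or GM12878, and 1 was without HepG2, HL60 or GM07019. COL3A1 (0.78 ± 0.22, 0.0579) and COL14A1 (0.50 ± 0.17, 0.106) did not pass in this comparison. At 8 h 0 collagens differed (0.0668% of all probe sets, 11 at an unadjusted p under 0.05).

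**Figure D5:**
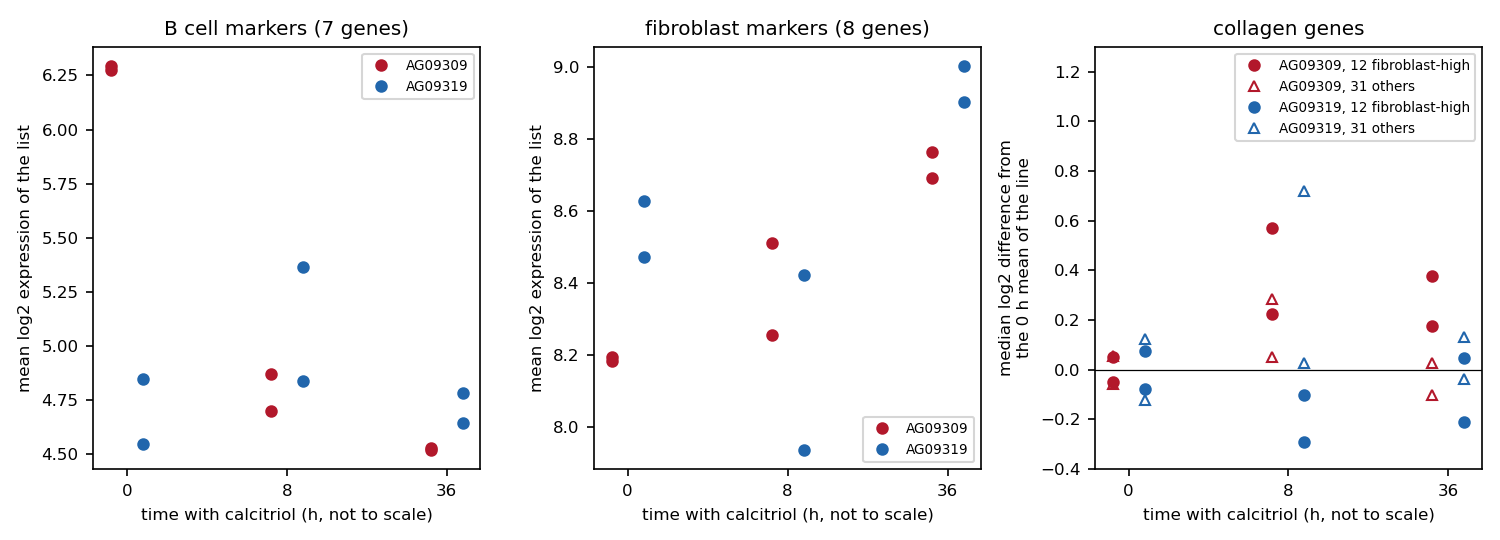
Fibroblast arrays at 0, 8 and 36 h, with a point for each array: the mean log2 level of 7 B cell markers (left), of 8 fibroblast markers (middle), and the median log2 difference of the 12 fibroblast-high and the 31 other collagens from the untreated mean of the line (right). The 2 untreated AG09309 arrays stand at 6.27 and 6.29 for the B cell markers, and 1 AG09319 array at 8 h is lowest for fibroblast markers (7.94) and highest for the 31 other collagens (0.72).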

How the data were processed

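The authors deposited log2 values per probe set, made with Affymetrix Expression Console 1.0 and RMA per the submitters' processing notes. Per the labels' protocols, an Exiqon kit gave the RNA and 100 ng of it was labelled with biotin by the Affymetrix WT protocol. The sources used here do not say whether 1 RMA run covered all arrays. Of 33297 probe sets, 21214 are in the probe table and 19460 with 1 symbol were tested, with no filter on low values. Arrays were grouped by line and time. The members and gene lists were chosen with earlier results of these data known. Tests used limma 3.58.1 in R 4.3.3, two-sided, with Benjamini-Hochberg adjustment at 0.05, either on means of lines or on 54 arrays in 27 groups (27 residual degrees of freedom), and were checked on simulated data. Alternatives were quantile normalization, centring on array medians, a mean of at least 5, 1 probe set per gene, leaving out arrays or lines, a replicate block and the arrays of the compared lines alone. Values in every array are given for collagens with an untreated mean of at least 9 in any line or called in a treated comparison, and for others chosen after their values were seen. Of the lists of collagen pathway genes, called members of the largest size were named. Of the list genes 7 were not measured. Tables and figures used Python 3.11.15, the R package data.table (version 1.17.8), numpy 2.4.6, pandas 2.3.3 and matplotlib 3.10.9. The number of arrays limits the precision.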

Additional observations from a re-analysis of the deposited data

Results flagged for a closer look

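Among the changes of 9 lines, the line farthest from the rest stood clear of the others in 3 of 20 sets of values examined, and among untreated levels of the 7 other lines in 0 of 12. Chance alone would do so in about 1 of 20, but COL8A1, COL14A1 and COL16A1 were examined because they were called for a change in fibroblasts, so the values below are descriptions. COL8A1 at 8 h was one, with a change of 0.52 in AG09309. COL12A1 at 8 h was another, with -0.99 in AG09319, where 1 of the 2 arrays stands apart. COL14A1 at 36 h was the third, with 0.83 in AG09309.

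Changes differed between lines by a test of the difference for 3 collagens. COL3A1 changed more in AG09309 than in AG09319 at 8 h, by 1.27. COL8A1 and COL16A1 changed more in the 2 fibroblast lines than in the 7 others at 36 h, by 0.55 and 0.62.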

How the results depend on the processing

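The 12 collagens higher in fibroblasts kept direction and call under every alternative in which they were tested, and the count ran from 12 to 13 with 1 line left out. COL8A1 (mean 3.89 over all arrays) and COL12A1 (4.87) were not tested where a mean of at least 5 was required. Among single genes, 489 of 573 recomputed values stayed on their side of the threshold, 84 lost the call and 0 reversed. The other counts moved as follows, and where no construction is given the cause was not tested. The share of all probe sets was not set beside these counts, so a moved count is no result on collagens. A fit that leaves 1 array in a group rests on that array.

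Requiring a mean of at least 5, which tests fewer genes, gave 2 differences between AG09309 and AG09319 at 0 h (6 without the filter), 1 change in AG09309 at 36 h (2), 1 gene changing more in fibroblasts than in the 7 others at 36 h (2), 2 in the fibroblast pair (4), 1 in lymphoblastoid lines (2) and 5 in K562 (8). Quantile normalization gave 1 change in AG09309 at 8 h (0), 2 in AG09319 at 36 h (0), 2 for the difference of these lines at 36 h (0) and 2 at 8 h (1). Centring arrays gave 5 in AG09309 at 36 h (2), 1 in AG09319 at 8 h (0), 1 for the difference at 36 h (0) and 3 at 8 h (1). Without the 3 arrays that stand apart there were 1 in AG09309 at 8 h (0), 4 at 36 h (2), 1 in AG09319 at 36 h (0), 2 for the difference at 36 h (0), 0 for fibroblasts against others at 36 h (2), 2 for AG09319 at 36 against 8 h (5) and 9 in HepG2 (21). With fewer arrays, those of the compared lines alone, there were 3 at 0 h between the lines (6), 1 in AG09309 at 8 h (0), 1 in the pair (4), 0 for the 8 h difference (1) and 0 for AG09319 at 36 against 8 h (5). Treated arrays gave 12 differences between the lines at 8 h and 10 at 36 h (6 at 0 h), and AG09309 at 36 against 8 h gave 0 (2 against 0 h). The pair without AG09309 gave 0 and without AG09319 gave 2 (4).

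With single arrays left out, AG09309 at 36 h gave 1 to 1 (2), AG09319 at 8 h 0 to 26 (0), the 8 h difference 0 to 11 (1), the pair 2 to 3 (4) and AG09319 at 36 against 8 h 2 to 28 (5). With single lines left out, fibroblasts against others at 36 h gave 0 to 2 (2) and lymphoblastoid lines 1 to 2 (2).

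A replicate block was tried although the labels do not pair the arrays: of 27 pairs of times within a line, 14 had deviations of same-numbered arrays correlated above 0.1 (-0.41 to 0.58). The block gave 8 in place of 5 collagens for AG09319 at 36 against 8 h and changed no other count by over 1.5 times. Array medians shifted by over 0.1 in AG09319 at 8 h (0.10) and K562 at 36 h (0.12).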
